A study of Mus musculus with 12 samples.

Results

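Transcripts of 8 adhesion receptor genes were measured in T cells that had met a strong or a weak agonist peptide in mice. The genes were Cd44, Selplg and the integrin chains Itgal, Itgb2, Itga4, Itgb1, Itgb7 and Itgae. They were taken by symbol: a probe set was a member where the platform annotation gave it 1 gene symbol and that symbol was one of these. This gave 16 of the 22690 probe sets and 8 of the 12394 genes of the array. Of the 16 probe sets, 9 had a mean over all arrays at or above the filter on low values (log2 4.48, the 40th percentile of all probe sets), and these stood for 7 genes. Itgae lay below the filter and was not tested.

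Integrins are pairs of an alpha and a beta chain, and signals inside the cell can raise their adhesion by switching their shape. Itgal and Itgb2 form LFA-1, which holds T cells to antigen-presenting cells and endothelium through ICAM-1. Itga4 pairs with Itgb1 as VLA-4, a receptor of VCAM-1 and fibronectin, or with Itgb7 as the gut homing receptor of MAdCAM-1, and Itgae pairs with Itgb7 in a receptor of E-cadherin. CD44 binds hyaluronan and is the classical surface marker of T cells that have met antigen, and Selplg encodes PSGL-1, which binds P-selectin once it carries the right sugars.

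The cells came from 5CC7 mice, whose T cells share 1 transgenic receptor, and were transferred into B10.A recipients. Per the labels, a recipient then received peptide into the tail vein, and after 48 h the lymph nodes were pooled and the transferred cells sorted by flow cytometry. The groups, with 3 arrays each, were 2 µg of MCC, 0.2 µg of MCC, 2 µg of 102S and 0.2 µg of 102S. MCC is the strong and 102S the weak agonist of this receptor. All 4 groups thus share the transgenic receptor, the transfer, the recipient strain and exposure to a peptide, and cells without peptide were not analysed here. The design asks how the response differs with the strength and the dose of the peptide. Each value is a deposited log2 expression value. The labels do not say whether replicates were separate animals, and the p-values therefore reflect nothing but the scatter among these samples, part of which may be technical. In a sorted bulk sample, fewer cells with a transcript and less transcript per cell cannot be told apart.

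The arrays carried T cell markers: Cd3d lay between 12.71 and 13.06 and Cd4 between 6.80 and 7.75 on the log2 scale. Of the markers of CD8 T and NK cells, 6 of 7 were on the array, and their mean level per array was 4.95 to 5.11 with 2 µg of MCC, 5.30 to 5.88 with 0.2 µg of MCC, 5.80 to 5.83 with 2 µg of 102S and 6.26 to 6.44 with 0.2 µg of 102S. The markers did not move equally. Klrd1 had the widest range, with group means of 4.65 and 6.27 with 2 and 0.2 µg of MCC, and 7.33 and 8.63 with 2 and 0.2 µg of 102S. Among the markers Klrd1 was lower with MCC than with 102S at both doses, Gzma at 2 µg and Prf1 at 0.2 µg. Between the doses, Klrd1 was lower with 2 µg than with 0.2 µg of MCC, and Prf1 was lower with 2 µg than with 0.2 µg of 102S. Cd8a lay between 5.18 and 6.42 and Cd8b1 between 7.03 and 8.31, so Cd8b1 overlapped the range of Cd4 and reached above it. Their group means spanned 5.55 to 5.97 and 7.41 to 7.88. Both were called in no comparison, and Ncr1 was below the filter (2.50 to 3.42). Of 5 B cell markers on the array 1 passed the filter, Cd79b, which was higher with MCC at 0.2 µg (group means 5.73 with MCC and 4.47 with 102S). Of 8 myeloid and dendritic cell markers, 3 passed the filter: Lyz2 (4.15 to 5.89), Csf1r (4.85 to 5.72) and Fcer1g (5.08 to 5.91). They were called in no comparison. Itgam (2.86 to 3.57), Itgax, Cd14, Adgre1 and Tyrobp did not pass the filter. Replicate 1 carried transcripts of the other sex from replicates 2 and 3 in every group: Xist lay between 10.35 and 11.03 on the 4 replicate 1 arrays and between 2.27 and 2.78 on the 8 others. The difference between the 3′ and 5′ probe sets of β-actin, which grows where RNA is degraded or labelled short, averaged 0.63 ± 0.12 log2 with 2 µg of MCC, 1.62 ± 0.81 with 0.2 µg of MCC, 1.24 ± 0.41 with 2 µg of 102S and, at the lower dose of 102S, 1.33 ± 0.88 (SD, n = 3).

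Promoter sequences of 4 of the 8 genes were found in RefSeq (GRCm38.p6), and 3 are shown, since Cd44, Itga4 and Itgb7 were each called in at least 1 comparison of the peptides. Each is the 250 bases before the annotated start, 5′ to 3′ on the strand of the gene: chr2:102901666-102901915 (minus strand) for Cd44, chr2:79255176-79255425 (plus strand) for Itga4 and chr15:102231936-102232185 (minus strand) for Itgb7. Both strands were searched for the letters TGANTCA of AP-1, GGAAAA of NFAT, TGTGGT of RUNX, CCGGAAG of ETS and GGGCGG of Sp and KLF factors, and capitals mark each match.
Cd44: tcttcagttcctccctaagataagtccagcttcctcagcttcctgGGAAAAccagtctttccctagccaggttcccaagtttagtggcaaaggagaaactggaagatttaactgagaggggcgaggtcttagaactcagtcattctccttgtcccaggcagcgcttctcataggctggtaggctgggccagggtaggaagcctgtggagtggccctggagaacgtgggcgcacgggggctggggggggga
Itga4: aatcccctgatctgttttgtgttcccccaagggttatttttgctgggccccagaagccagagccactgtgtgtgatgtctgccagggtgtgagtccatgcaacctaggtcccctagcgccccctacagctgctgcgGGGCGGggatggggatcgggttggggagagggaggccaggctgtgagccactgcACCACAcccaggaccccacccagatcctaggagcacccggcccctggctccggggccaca
Itgb7: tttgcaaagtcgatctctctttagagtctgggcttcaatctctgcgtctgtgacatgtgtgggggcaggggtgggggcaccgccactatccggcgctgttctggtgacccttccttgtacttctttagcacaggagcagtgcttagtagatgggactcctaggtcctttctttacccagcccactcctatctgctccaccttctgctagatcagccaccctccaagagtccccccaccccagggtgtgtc
The Cd44 stretch held 1 NFAT match, letters found in 20.4% of 32851 promoter stretches of this length. The Itga4 stretch held 1 RUNX match, on the opposite strand, and 1 Sp and KLF match, found in 14% and 32.7% of stretches. The Itgb7 stretch held 0 of these letters. The other shares were 6.75% for AP-1 and 6.91% for ETS, and no match overlapped another. These matches are letters in a window, and no binding was measured.

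MCC and 102S left different patterns of receptor transcripts, in both directions. Cd44 was higher with MCC at both doses, and Itgal at 0.2 µg. Selplg was lower with MCC at both doses, Itga4 at 2 µg and Itgb7 at 0.2 µg. At 2 µg, 3 of the 7 tested genes were called by limma (adjusted p under 0.05), 1 higher and 2 lower, where 11.3% of the 7945 genes tested were called (4.43% higher and 6.83% lower). At 0.2 µg, 4 of 7 were called, 2 higher and 2 lower, against 16.1% of all genes (9.09% higher and 7.02% lower). The median difference of the 7 genes was 0.27 log2 at 2 µg and 0.14 at 0.2 µg, against -0.051 and -0.014 over all genes. The arrays of the peptides did not overlap for 7 of 7 genes at 2 µg and 5 of 7 at 0.2 µg, and for 33.7% and 31.3% of all genes. Between the doses, 0 of 7 genes were called for MCC, against 1.93% of all genes, and 1 of 7, Cd44, for 102S, against 3.83%. The doses did not overlap for 2 of 7 genes with MCC and 3 of 7 with 102S, and for 19.2% and 22.8% of all genes. These comparisons share arrays and are not independent of each other.

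**Figure D1:**
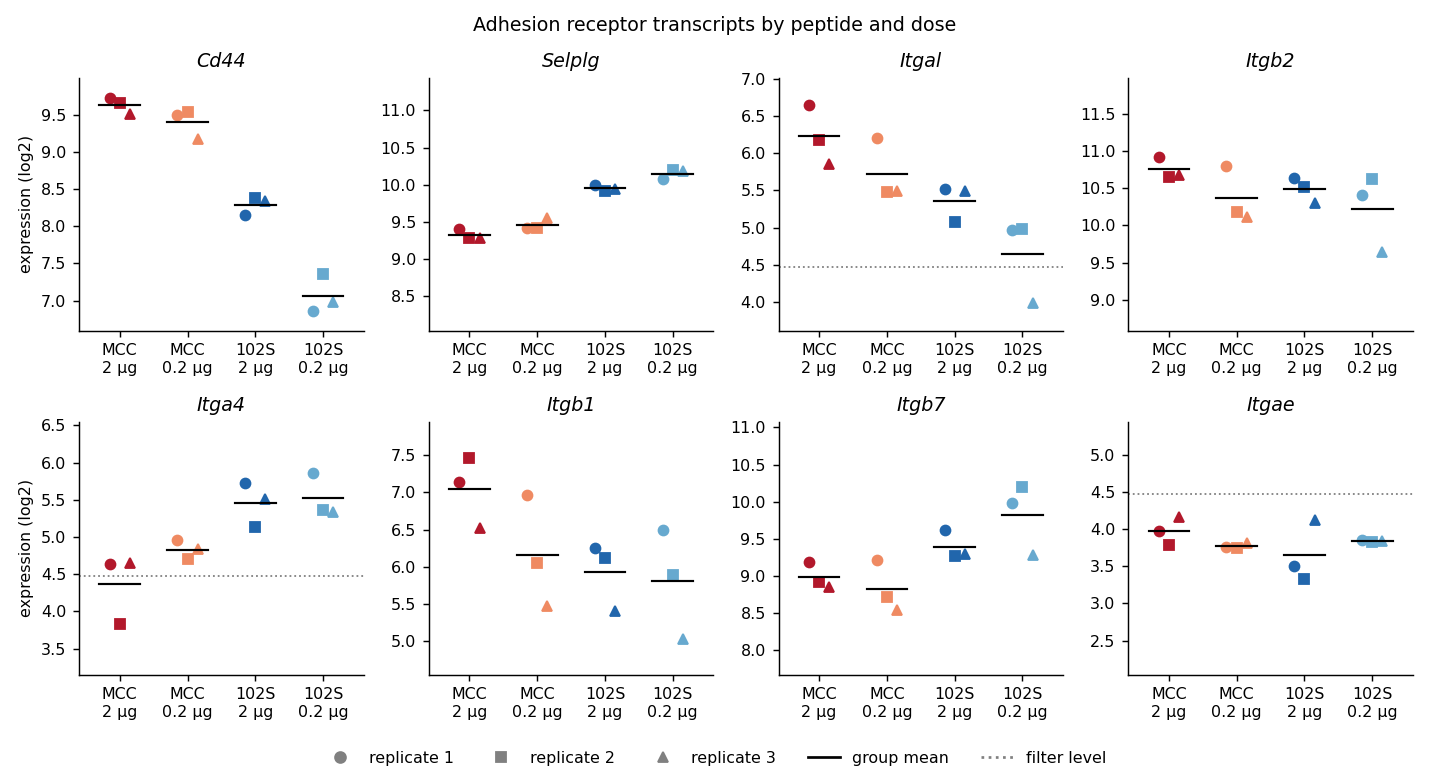
Log2 expression of the 8 genes on each of the 12 arrays, by peptide and dose, with a panel per gene and panels of equal height in log2 units. Points are arrays, shaped by replicate number, lines are group means and the dotted line is the filter level of 4.48. The MCC arrays sit above the 102S arrays for Cd44 and below them for Selplg, and every Itgae array lies under the filter level.

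**Figure D2:**
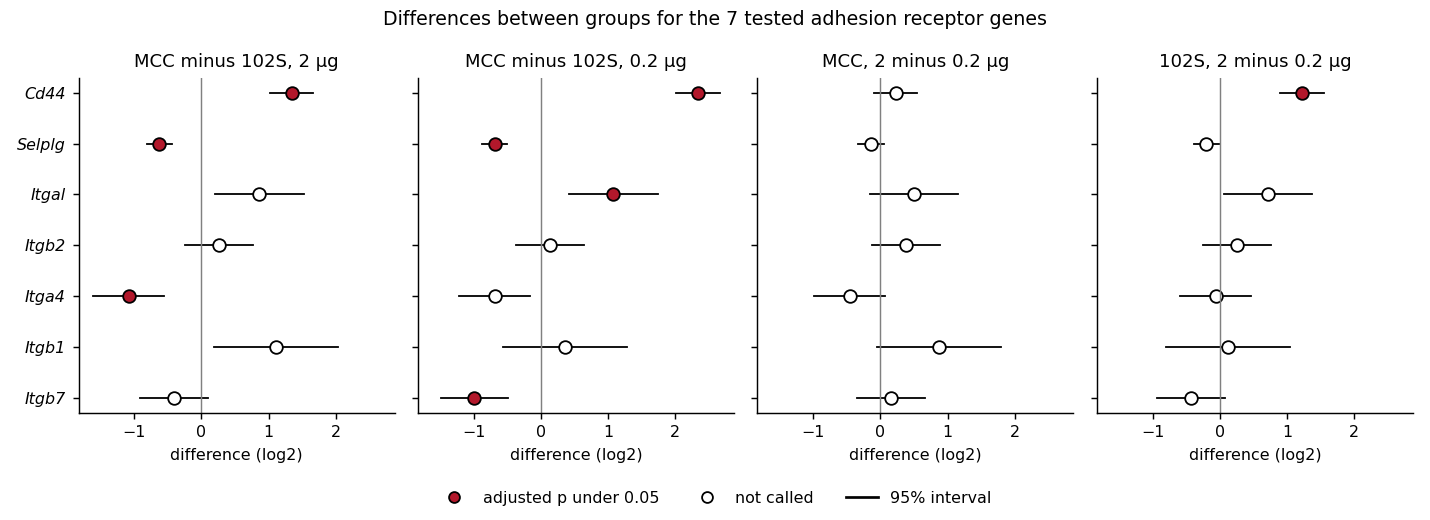
Differences between groups (log2, horizontal axis) of the 7 tested genes in 4 comparisons, with 95% intervals from limma. Filled points have an adjusted p under 0.05. In the first panel Cd44, Selplg and Itga4 are filled, in the second Cd44, Selplg, Itgal and Itgb7, in the third none and in the fourth Cd44.

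Cd44 showed the largest difference of the 7 genes at both doses. Its brighter probe set read 9.73, 9.65 and 9.51 with 2 µg of MCC, and 9.50, 9.53 and 9.17 with 0.2 µg of MCC. It read 8.15, 8.38 and 8.33 with 2 µg of 102S, and 6.87, 7.36 and 6.98 with 0.2 µg of 102S. Every MCC array was thus above every 102S array, and the arrays of the weak peptide separated by dose while those of the strong peptide overlapped. At 2 µg the level was 2.54-fold higher with MCC (difference 1.34 ± 0.15 log2, SE, 95% interval 1.02 to 1.67, limma adjusted p = 0.000228). At 0.2 µg it was 5.05-fold higher with MCC (2.34 ± 0.15, 2.01 to 2.66, limma adjusted p = 1.13e-06). On this probe set, even the lower dose of MCC gave 2.17-fold more Cd44 than the higher dose of 102S (1.11 ± 0.15, limma adjusted p = 0.00292). Within replicate 1, whose cells were of the other sex, the difference was 1.58 log2 at 2 µg and 2.63 at 0.2 µg. Within replicates 2 and 3 it was 1.27 and 1.18 at 2 µg, and 2.18 and 2.20 at 0.2 µg.

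The dose of 102S, but not that of MCC, passed the test for Cd44. Cells given 2 µg of 102S had 2.33-fold more than cells given 0.2 µg (1.22 ± 0.15 log2, 0.90 to 1.55, limma adjusted p = 0.000535). For MCC the difference between the doses was 0.23 ± 0.15 log2, with an interval of -0.096 to 0.55 and a limma adjusted p of 0.425. The interaction, which is the peptide difference at 2 µg minus that at 0.2 µg, was -0.99 ± 0.21 log2 (-1.45 to -0.53), and its adjusted p of 0.0593 in limma missed the threshold. It passed in 4 other fits, with adjusted p = 0.0261 with replicate 1 against the others as a block, 0.0108 with the replicate number as a block, 0.00697 with the β-actin difference as a covariate and 0.0391 after quantile normalization. It also passed without replicate 2 of 0.2 µg 102S, at adjusted p = 0.0286. Among all genes the interaction was called in 0.906%.

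The second probe set of Cd44 gave the same directions. It read 6.89, 7.08 and 6.38 with 2 µg of MCC and 6.42, 6.57 and 6.28 with 0.2 µg of MCC. With 102S it read 5.54, 5.91 and 5.59 at 2 µg and 4.02, 4.71 and 3.66 at 0.2 µg, where the group mean of 4.13 lies below the filter level. The peptide difference was 1.10 ± 0.26 log2 at 2 µg (limma adjusted p = 0.0175) and 2.30 ± 0.26 at 0.2 µg (limma adjusted p = 7.11e-05). The dose difference of 102S was 1.55 ± 0.26 (limma adjusted p = 0.00456). The difference of 0.2 µg MCC from 2 µg 102S was 0.74 ± 0.26 on this probe set and did not pass (limma adjusted p = 0.179). Its interaction was -1.19 ± 0.36 and did not pass either (limma adjusted p = 0.259).

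Selplg, which encodes the P-selectin ligand PSGL-1, ran the other way with little spread. It read 9.41, 9.29 and 9.28 with 2 µg of MCC, and 9.41, 9.42 and 9.55 with 0.2 µg of MCC. It read 9.99, 9.91 and 9.94 with 2 µg of 102S, and 10.07, 10.20 and 10.18 with 0.2 µg of 102S. All 6 MCC arrays lay below all 6 102S arrays. At 2 µg the level was 1.54-fold lower with MCC (-0.62 ± 0.087 log2, -0.81 to -0.44, limma adjusted p = 0.000862), and at 0.2 µg 1.61-fold lower (-0.69 ± 0.087, -0.88 to -0.50, limma adjusted p = 0.000195). The difference within each replicate number lay between -0.66 and -0.59 at 2 µg and between -0.78 and -0.63 at 0.2 µg. The differences between doses were -0.14 log2 for MCC (limma adjusted p = 0.416) and -0.20 for 102S (limma adjusted p = 0.346), and the interaction was 0.063 (limma adjusted p = 0.887). The difference of 0.2 µg MCC from 2 µg 102S was -0.49 (limma adjusted p = 0.0125). That call was lost without replicate 1 of 2 µg 102S (adjusted p = 0.0712), without replicate 2 of 0.2 µg MCC (0.0674), in a fit of those groups alone (0.061) and with replicates 2 and 3 only (0.146). Across these 0.2 µg MCC and 2 µg 102S groups, 2 of the 7 genes were called, Cd44 and Selplg, against 2.96% of all genes, and 4 of 7 did not overlap, against 24.9%. Among markers of CD8 T and NK cells, of which 6 were on the array, Klrd1 and Gzma were lower with MCC at 2 µg, where Selplg and Itga4 were called lower. Klrd1 and Prf1 were lower at 0.2 µg, where Selplg and Itgb7 were, and Prf1 was lower with the higher dose of 102S, where Cd44 was called higher. None of the 6 was called for 0.2 µg MCC against 2 µg 102S. Their part in the differences of the receptors was not tested.

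The chains of LFA-1 differed in their result. Itgal, its alpha chain, read 6.64, 6.17 and 5.86 with 2 µg of MCC, and 6.20, 5.48 and 5.49 with 0.2 µg of MCC. It read 5.51, 5.08 and 5.49 with 2 µg of 102S, and 4.97, 4.97 and 3.99 with 0.2 µg of 102S. The group means followed the order of Cd44: highest with 2 µg of MCC and lowest with 0.2 µg of 102S. At 0.2 µg Itgal was 2.11-fold higher with MCC (1.08 ± 0.30 log2, 0.42 to 1.74, limma adjusted p = 0.0331). This call was lost without replicate 3 of 0.2 µg 102S (difference 0.75, adjusted p = 0.0734), and without replicate 1 (0.0746), 2 (0.0608) or 3 (0.0528) of 0.2 µg MCC. It was also lost with replicates 2 and 3 only (adjusted p = 0.0678), in a fit of those groups alone (0.103) and without both arrays of the largest β-actin difference (0.0851). At 2 µg the difference was 0.86 ± 0.30 (0.21 to 1.52) and did not pass (limma adjusted p = 0.0966). With the replicate number as a block it passed (adjusted p = 0.0173), as it did with replicate 1 against the others as a block (0.0219) and without replicate 3 of 0.2 µg 102S (0.0379). With the β-actin covariate it was 0.53 and did not pass, and with replicates 2 and 3 only its adjusted p was 0.228. The differences within replicates 1, 2 and 3 were 1.13, 1.10 and 0.37 at 2 µg, and 1.23, 0.50 and 1.50 at 0.2 µg.

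Itgb2, the beta chain of LFA-1 that other leukocyte integrins also use, passed in no comparison. It read 10.93, 10.65 and 10.68 with 2 µg of MCC, and 10.80, 10.18 and 10.12 with 0.2 µg of MCC. It read 10.64, 10.52 and 10.30 with 2 µg of 102S, and 10.41, 10.62 and 9.65 with 0.2 µg of 102S. The groups overlapped at 0.2 µg and were separated at 2 µg by less than the spread within either. The peptide difference was 0.27 ± 0.23 log2 at 2 µg (-0.24 to 0.77, limma adjusted p = 0.55) and 0.14 ± 0.23 at 0.2 µg (-0.37 to 0.65, limma adjusted p = 0.753). With the β-actin difference as a covariate, the value was 0.28 at 0.2 µg (adjusted p = 0.0215) and turned to -0.042 at 2 µg.

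Itga4, the alpha chain of both VLA-4 and the gut homing receptor, was lower with MCC at 2 µg. Its brightest probe set read 4.63, 3.84 and 4.65 with 2 µg of MCC, and 4.96, 4.70 and 4.83 with 0.2 µg of MCC. It read 5.73, 5.13 and 5.51 with 2 µg of 102S, and 5.86, 5.36 and 5.34 with 0.2 µg of 102S. The arrays of the peptides did not overlap at either dose, and the mean with 2 µg of MCC, 4.37, lay below the filter level, so no fold is given there. The difference at 2 µg was -1.08 ± 0.24 log2 (-1.62 to -0.55, limma adjusted p = 0.0148). It no longer passed without replicate 1 (adjusted p = 0.0688) or 3 (0.0593) of 2 µg 102S, or with replicates 2 and 3 only (0.0578). At 0.2 µg it was -0.69 ± 0.24 (-1.22 to -0.16), which did not pass (limma adjusted p = 0.0826). It passed there with replicate 1 against the others as a block (adjusted p = 0.0258), with the β-actin covariate (0.0457), after quantile normalization (0.0423) and without replicate 2 of 2 µg MCC (0.0431). With 0.2 µg of MCC against 2 µg of 102S it was -0.63 (limma adjusted p = 0.24, and 0.0406 with the replicate number as a block). Within single replicate numbers the difference lay between -1.29 and -0.86 at 2 µg and between -0.90 and -0.51 at 0.2 µg. The other 2 probe sets of Itga4 read 2.40 to 3.84 and were not tested.

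Itgb1, the partner of Itga4 in VLA-4 and of many other alpha chains, varied most within groups of the 7 genes tested. Its brightest probe set read 7.14, 7.47 and 6.52 with 2 µg of MCC, and 6.97, 6.05 and 5.48 with 0.2 µg of MCC. It read 6.25, 6.12 and 5.41 with 2 µg of 102S, and 6.49, 5.89 and 5.03 with 0.2 µg of 102S. Replicate 3 was the lowest array in every group, and the groups were separated at 2 µg and overlapped at 0.2 µg. The peptide difference at 2 µg was 1.11 ± 0.43 log2 (0.19 to 2.04) and did not pass (limma adjusted p = 0.13). With the replicate number as a block it passed (adjusted p = 0.00268), as it did with replicate 1 against the others as a block (0.0314), while with the β-actin covariate it was 0.58 and did not pass. Within replicates 1, 2 and 3 it was 0.89, 1.34 and 1.11. At 0.2 µg it was 0.36 ± 0.43 (-0.57 to 1.29, limma adjusted p = 0.638, and 0.0429 with the β-actin covariate at a difference of 0.61). The difference between the doses of MCC was 0.88 (limma adjusted p = 0.301). With a block for the replicate number it passed (adjusted p = 0.0209), and with the β-actin covariate it was 0.018 (adjusted p = 0.982). That block raised the number of genes called to 5 of 7 for the peptides at 2 µg, to 1 for the dose of MCC and to 4 for 0.2 µg MCC against 2 µg 102S. Over all 13556 probe sets it also raised the number called, to 2485 from 1392, to 1563 from 239 and to 1147 from 336 in these comparisons.

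The second tested probe set of Itgb1 read 6.84, 6.98 and 6.90 with 2 µg of MCC, and 6.95, 5.70 and 5.37 with 0.2 µg of MCC. With 102S it read 6.28, 5.70 and 5.23 at 2 µg, and 6.60, 6.05 and 5.36 at 0.2 µg. Its difference at 2 µg was 1.17 ± 0.40 log2 (limma adjusted p = 0.0904), close to that of the first, and at 0.2 µg it was 0.0077 (limma adjusted p = 0.994). The other 4 probe sets read 2.01 to 3.94 and were not tested.

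Itgb7, the partner of Itga4 in gut homing and of Itgae, was lower with MCC at 0.2 µg. It read 9.19, 8.92 and 8.85 with 2 µg of MCC, and 9.22, 8.72 and 8.55 with 0.2 µg of MCC. It read 9.63, 9.27 and 9.29 with 2 µg of 102S, and 9.98, 10.20 and 9.28 with 0.2 µg of 102S. Every MCC array lay below every 102S array. At 0.2 µg the level was 1.99-fold lower with MCC (-0.99 ± 0.23 log2, -1.49 to -0.49, limma adjusted p = 0.0132). The call was lost in a fit of those groups alone (adjusted p = 0.0771), without replicate 1 (0.0546) or 2 (0.0635) of 0.2 µg 102S, and without replicate 2 (0.0594) or 3 (0.0585) of 0.2 µg MCC. At 2 µg the difference was -0.41 ± 0.23 (-0.91 to 0.093), which did not pass (limma adjusted p = 0.321), and with the β-actin covariate it was -0.70 (adjusted p = 0.000141). The interaction was 0.58 (limma adjusted p = 0.624), so the peptide difference was not shown to differ between the doses. The difference of 0.2 µg MCC from 2 µg 102S was -0.57 (limma adjusted p = 0.26, and 0.0418 with the replicate number as a block). Within single replicate numbers it lay between -0.44 and -0.34 at 2 µg and between -1.48 and -0.73 at 0.2 µg.

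Itgae, the alpha chain of the E-cadherin receptor, was near the bottom of the scale on every array. It read 3.97, 3.78 and 4.16 with 2 µg of MCC, and 3.76, 3.75 and 3.82 with 0.2 µg of MCC. It read 3.50, 3.32 and 4.13 with 2 µg of 102S, and 3.85, 3.82 and 3.84 with 0.2 µg of 102S. The groups overlapped, and without a filter its adjusted p in limma lay between 0.489 and 0.946 over the 6 comparisons.

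Several of these transcripts moved with the β-actin difference of the array. In 4 of 4 groups the lowest Itgb1 value lay on the array with the largest β-actin difference, and so did the lowest value of Itgb2 and of Itgb7 in 3 groups each. For Itgal and Cd44 this was so in 2 groups each, and for Selplg and Itga4 in 1 each. These counts are for the brightest probe set of each gene. On the second tested probe sets of Cd44 and Itgb1 it was so in 3 groups each. Within groups, Pearson r with the β-actin difference was -0.95 for Itgb2, -0.94 for Itgb7, -0.89 for Itgb1 and -0.82 for Itgal. It was -0.36 for Itga4, 0.35 for Selplg and -0.29 for Cd44. No share over all genes was computed. Replicate 1 spanned 0.50 to 0.81 and replicate 3 0.72 to 2.35. Itgal, Itgb1, Itgb2, Itgb7 and Itga4 were highest on replicate 1 in 3 groups each. The β-actin difference and the replicate number were not separated. With the β-actin difference as a covariate, 7 of 7 genes were called at 0.2 µg, and the dose of 102S was called for 3 genes: Cd44, Itgal (0.66, adjusted p = 0.0376) and Itgb7 (-0.47, adjusted p = 0.00366). Over all 13556 probe sets that fit called 3645 at 0.2 µg, against 1939 without the covariate, and 1420 for the dose of 102S, against 429. Cd44 and Selplg kept their calls at both doses in that fit.

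**Figure D3:**
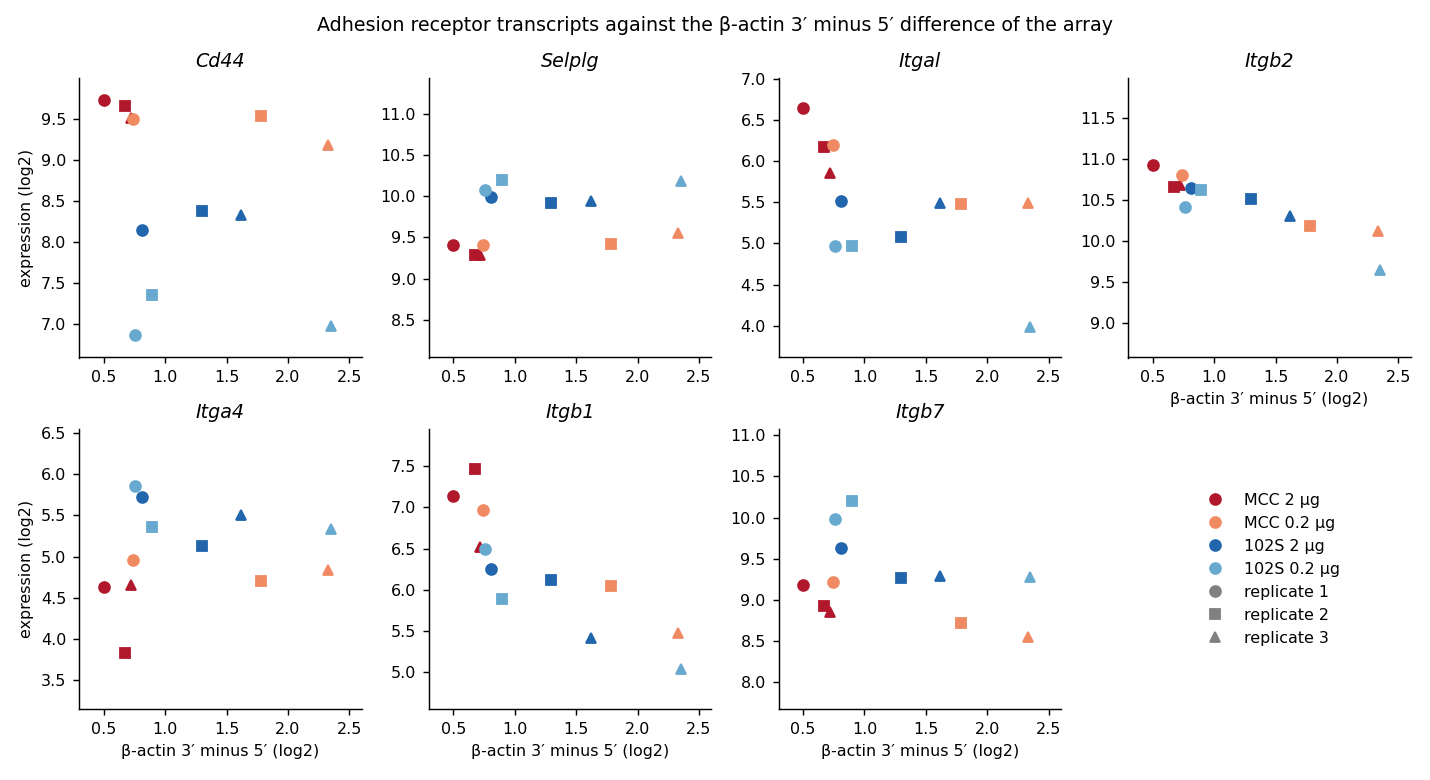
Log2 expression of the 7 tested genes (vertical axis) against the 3′ minus 5′ difference of β-actin on the same array (log2, horizontal axis), with a panel per gene. Points are the 12 arrays, coloured by group and shaped by replicate number. The 3 arrays with 2 µg of MCC span 0.50 to 0.72 on the horizontal axis, and the other groups reach 1.62 to 2.35. The lowest Itgb1 array of each group is the one farthest to the right.

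For each gene called in any comparison, the 3 genes with the most similar pattern over the 12 arrays were listed. For Cd44 these were Cenpf (Pearson r = 0.989), Tspan31 (0.985) and Tns1 (0.984). For Selplg they were Npc2 (0.982), Phf1 (0.976) and Cacul1 (0.974). For Itgal they were Lrig1 (0.965), Sesn3 (0.965) and Zfp410 (0.959), and for Itga4 Peli1 (0.928), Sema4a (0.927) and Pdk1 (0.922). For Itgb7 they were Rnf44 (0.975), Pag1 (0.974) and Etv3 (0.974). Among the receptors themselves, Cd44 and Selplg ran opposite (r = -0.95), and Itgb2 followed Itgb1 (0.82) and Itgal (0.79). These arrays fall into 4 treatment groups and differ in the β-actin measure, so the coefficients describe shared patterns over 12 arrays only.

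A list of 66 other genes of T cell adhesion was counted beside these receptors. Of these, 58 were on the array under their own symbol and 43 were tested. With MCC against 102S, 6 of 43 were called at 2 µg, 2 higher and 4 lower, against 11.3% of all genes. At 0.2 µg 12 of 43 were called, 3 higher and 9 lower, against 16.1%. These counts include Alcam at 2 µg and Crtam at 0.2 µg. Each passed the filter through the group where it is high, so their tests add no support. The median difference of the 43 genes was -0.022 log2 at 2 µg and 0.0013 at 0.2 µg. Of the 7 other integrin chains tested, 1 was called at each dose, Itga6, a chain of laminin receptors. Of 11 ligands and immunoglobulin family receptors, 3 were called at 2 µg and 5 at 0.2 µg, and of 16 genes of integrin activation, 2 and 4.

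Rasgrp2, Icam2 and Icam1 were lower with MCC at both doses. Rasgrp2, an exchange factor that loads the small GTPase Rap1 ahead of integrin activation, read 6.64, 6.15 and 5.95 with 2 µg of MCC and 6.59, 5.35 and 6.31 with 0.2 µg of MCC. With 102S it read 8.16, 7.80 and 7.80 at 2 µg and 8.42, 8.58 and 8.06 at 0.2 µg. All MCC arrays lay below all 102S arrays, with differences of -1.67 ± 0.29 log2 at 2 µg (limma adjusted p = 0.00357) and -2.27 ± 0.29 at 0.2 µg (limma adjusted p = 0.000205). Icam2, a ligand of LFA-1, differed by -1.57 ± 0.21 log2 at 2 µg (limma adjusted p = 0.000791) and by -1.16 ± 0.21 at 0.2 µg (limma adjusted p = 0.0033). Its arrays read 7.79, 7.82 and 6.94 with 2 µg of MCC and 7.89, 8.18 and 8.24 with 0.2 µg of MCC, against a mean of 9.08 ± 0.14 with 2 µg of 102S and 9.27 ± 0.20 at its lower dose (SD, n = 3). Icam1, the best known ligand of LFA-1, read 5.16, 5.66 and 4.74 with 2 µg of MCC and 5.68, 6.15 and 6.44 with 0.2 µg of MCC. With 102S it read 6.74, 6.13 and 6.55 at 2 µg and 7.17, 7.31 and 7.23 at 0.2 µg. The peptides separated within each dose, by -1.29 ± 0.25 log2 at 2 µg (limma adjusted p = 0.00685) and -1.15 ± 0.25 at 0.2 µg (limma adjusted p = 0.00938). The second of these was lost with replicates 2 and 3 only (adjusted p = 0.0574).

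Rap1b, a Rap1 GTPase, was lower with MCC at 0.2 µg (-0.81 ± 0.14 log2, limma adjusted p = 0.00204) and read -0.42 ± 0.14 at 2 µg, which did not pass (limma adjusted p = 0.0822). At 0.2 µg another Rap1b probe set passed (-0.84, limma adjusted p = 0.000476) and a further one did not (-0.96, limma adjusted p = 0.226). Rap1a, a relative of Rap1b, was higher with MCC at 2 µg (0.39 ± 0.089, limma adjusted p = 0.0161), but its other probe set read 0.19 (adjusted p = 0.319). Alcam, the ligand of CD6, was higher with MCC at 2 µg (1.53 ± 0.23, limma adjusted p = 0.00143), with 5.66, 6.20 and 5.44 on the MCC arrays and 3.98, 4.31 and 4.41 on the 102S arrays. The 102S arrays all lie below the filter level, and the means of the other groups (4.55, 4.23 and 3.97) lie near or below it, so Alcam passed the filter through the group where it is high and its test adds no support. Itga6 was lower with MCC, with differences of -0.50 ± 0.14 at 2 µg (limma adjusted p = 0.0393) and -0.68 ± 0.14 at 0.2 µg (limma adjusted p = 0.00655). Its other probe set did not pass at either dose (adjusted p = 0.0587 at 2 µg and 0.0511 at 0.2 µg), and the call at 2 µg was kept in 4 of 12 fits with 1 array left out. It was lost without any 1 of the 2 µg arrays, without replicate 1 of 0.2 µg 102S and without replicate 2 of 0.2 µg MCC. At 0.2 µg Cd6 (0.90 ± 0.21, limma adjusted p = 0.0141) and Cd96 (0.44 ± 0.11, limma adjusted p = 0.0225) were higher with MCC. Msn, which links CD44 and PSGL-1 to actin, was lower there (-0.34 ± 0.089, limma adjusted p = 0.0246), but its other probe set had an adjusted p of 0.605. The other 4 genes called at 0.2 µg were Crtam, Cytip and Tpst2, which were lower, and Itgb1bp1, which was higher. These 4 were named after their values were seen. The other probe set of Cytip did not pass (limma adjusted p = 0.0729).

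Between the doses, 2 of the 43 genes were called for each peptide, all 4 higher with 2 µg, where 1.93% of all genes were called for MCC and 3.83% for 102S. For MCC these were Alcam (1.21 ± 0.23 log2, limma adjusted p = 0.0204) and Rap1a (0.47 ± 0.089, limma adjusted p = 0.0204). Alcam passed the filter through the group with 2 µg of MCC, so its test adds no support here either. The other probe set of Rap1a read 0.22 (limma adjusted p = 0.297). For 102S the called genes were Cd6 (1.06 ± 0.21, limma adjusted p = 0.015) and Cd96 (0.52 ± 0.11, limma adjusted p = 0.0232). With 0.2 µg of MCC against 2 µg of 102S, 4 of 43 genes were called, all lower, against 2.96% of all genes. They were Rasgrp2 (-1.84, limma adjusted p = 0.00697), Itga6 (-0.75, 0.015), Icam2 (-0.98, 0.0331) and Rap1b (-0.62, 0.0382). With 1 array left out, Rasgrp2 kept its call in 12 of 12 fits, Itga6 in 8, Icam2 in 5 and Rap1b in 3. Other probe sets passed for Rasgrp2 (limma adjusted p = 0.0121 and 0.00798) but not for Itga6 (0.0721) or Rap1b (0.489 and 0.0526). Of the 26 called differences of the 43 genes, 8 kept their call in every setting tried and 18 lost it in at least 1, with 0 reversed. The 8 were those of Rasgrp2 in 3 comparisons, of Icam2 at both doses, of Alcam and Icam1 at 2 µg and of Rap1b at 0.2 µg. The kept call of Alcam adds no support, since it passed the filter through the group where it is high.

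**Figure D4:**
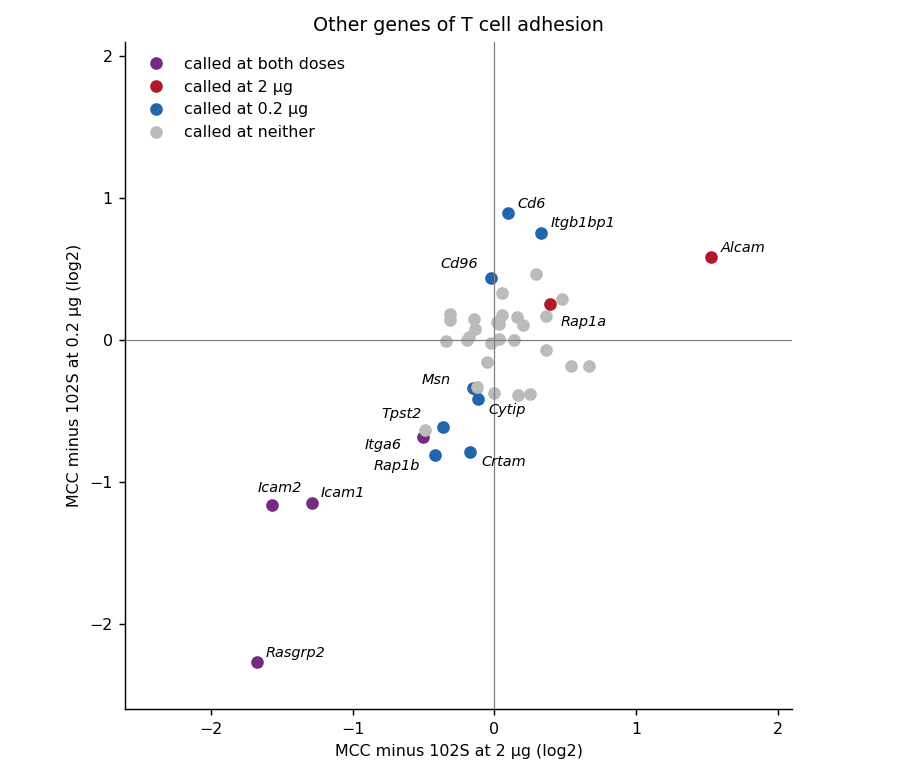
MCC minus 102S differences (log2) of the 43 other adhesion genes tested, at 2 µg on the horizontal axis and at 0.2 µg on the vertical axis. Each point is a gene, coloured by the dose at which limma called it, and called genes are labelled. Rasgrp2, Icam2, Icam1 and Itga6 are called at both doses and lie at the lower left, and Alcam, at 1.53 on the horizontal axis, is called at 2 µg.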

How the data were processed

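The authors deposited log2 expression values of the probe sets on each of the 12 arrays. The submitters' processing notes name GCOS 1.4, and the sources used here do not say how the authors summarised, background-corrected and scaled the probes. The log2 scale was read from the values (1.86 to 14.7). Array medians differed by at most 0.089 log2, so the values were used as deposited. Per the labels, 100 ng of total RNA was labelled with a 3′ transcription kit, the transcription step lasting 16 h. Arrays carry no read depth, and their number limits the precision: the median standard error of a difference was 0.18 log2.

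Genes were named from the platform annotation: 20393 probe sets had 1 symbol, 691 several and 1606 none. Probe sets below the 40th percentile of the mean and 64 controls were left out, leaving 13556. A gene was represented by its probe set of highest mean. limma 3.58.1 in R 4.3.3 (lmFit, eBayes with an intensity trend) fitted 4 group means to the 12 arrays with 8 residual degrees of freedom, as tested on simulated data. Tests were 2-sided, with Benjamini-Hochberg adjustment over all 13556 probe sets and a threshold of 0.05. Values after ± are standard errors for differences and standard deviations (n = 3) for group means.

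The members, the list of other adhesion genes and the markers were chosen with earlier results of these data known. The rule for naming took all members, and from the other genes those called in a comparison, at most the 8 of smallest p. Groups and replicate numbers came from the labels. Arrays with the same number deviated together for 2 µg of MCC against 102S (r = 0.60, 0.20 and 0.24 for replicates 1, 2 and 3), for the doses of MCC (0.56, 0.20 and 0.22) and for 0.2 µg MCC against 2 µg 102S (0.82, 0.39 and 0.58), so the replicate block is given beside those results. For 0.2 µg of MCC against 102S (0.79, -0.29 and 0.66) and the doses of 102S (0.80, -0.064 and 0.64), replicates 1 and 3 deviated together and replicate 2 did not. The rule asked that every pair deviate together, so the block was not called for beside those 2 results. Alternatives were another normalization, filter, variance trend and choice of probe sets, blocks by replicate number and by replicate 1 against the others, replicates 2 and 3 only, the β-actin difference as a covariate, the compared groups alone and each array left out in turn. Leaving out both arrays of the largest β-actin difference was added after seeing the data.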

Additional observations from a re-analysis of the deposited data

How the results depend on the processing

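Of the 10 called differences among the receptors, 6 kept their call in every setting: those of Cd44 in 4 comparisons and of Selplg at each dose. Over 11 settings, 103 of 110 refits of called differences kept the call, and with 1 array left out 108 of 120 did, with 0 reversed in either. With 3 arrays in a group, the number of arrays limits the precision.

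The number of receptors called was 5 at 2 µg (3 as reported) with the compared groups alone, with replicate 1 as a block, with the replicate block and without both arrays of the largest β-actin difference, and 2 to 4 with 1 array left out. The fits that gave 5 also called more of all 13556 probe sets, in that order 1652, 2059, 2485 and 1665, against 1392 as reported. At 0.2 µg (4 as reported) the number of receptors was 2 with the compared groups alone, 7 with the β-actin covariate and 2 to 5 with 1 array left out. Over all probe sets the compared groups alone called 1071 and the covariate fit 3645, against 1939 as reported. The number of receptors was 3 for the dose of 102S with the β-actin covariate (1 as reported, and 1 with any array left out), and 1 for the dose of MCC with the replicate block (0 as reported, and 0 with any array left out). Those fits called 1420 of all probe sets for the dose of 102S (429 as reported) and 1563 for the dose of MCC (239 as reported). For 0.2 µg MCC against 2 µg 102S (2 as reported) the number of receptors was 1 with the compared groups alone or with replicates 2 and 3 only, 4 with the replicate block and 1 to 2 with 1 array left out. The first 3 of these fits called 150, 130 and 1147 of all probe sets, against 336 as reported. For the interaction (0 as reported) the number of receptors was 1 with the β-actin covariate, quantile normalization, replicate 1 as a block or the replicate block, and 0 to 1 with 1 array left out. The fits that gave 1 called 285, 124, 245 and 321 of all probe sets in that order, against 104 as reported. For 0.2 µg of MCC against 102S, where replicates 1 and 3 deviated together and replicate 2 did not, the replicate block gave Itga4 an adjusted p of 0.0105 in limma. Over the groups, 9 of 12 arrays correlated best with arrays of their own number.

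Only differences that were not called changed sign. With the β-actin covariate these were Itgal (-0.034), Itgb2 (-0.11) and Itgb7 (-0.32) for the dose of MCC, Itgb1 (-0.024) and Itgb2 (-0.32) in the interaction, and Itgb2 at 2 µg (-0.042) and for 0.2 µg MCC against 2 µg 102S (0.070). Without both arrays of the largest β-actin difference they were Itgb1 (-0.26) and Itgb2 (-0.030) for the dose of 102S, and Itgb2 at 0.2 µg (-0.026) and for 0.2 µg MCC against 2 µg 102S (0.0039). The mean of the probe sets turned Itgb1 for the dose of 102S (-0.070), and replicates 2 and 3 only turned it for 0.2 µg MCC against 2 µg 102S (-0.0035). With 1 array left out, the dose of 102S ranged from -0.20 to 0.11 for Itga4, -0.26 to 0.47 for Itgb1 and -0.030 to 0.46 for Itgb2. The difference at 0.2 µg ranged from -0.042 to 0.70 for Itgb1 and -0.15 to 0.34 for Itgb2, that of 0.2 µg MCC against 2 µg 102S from -0.17 to 0.58 for Itgb1 and -0.34 to 0.0039 for Itgb2, and the interaction from -0.42 to 0.11 for Itgal and -0.070 to 0.42 for Itgb2. The causes were not tested.

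Over all 13556 probe sets, the number called ranged over the settings, with 1 array left out in brackets, from 772 to 3330 (700 to 1601) at 2 µg, where 1392 were reported, and from 1071 to 3645 (1051 to 2785) at 0.2 µg, where 1939 were. For the dose of MCC (239) it ranged from 74 to 1563 (61 to 1208), and for that of 102S (429) from 269 to 1420 (210 to 501). For the interaction (104) it ranged from 83 to 321 (62 to 142), and for 0.2 µg MCC against 2 µg 102S (336) from 130 to 1176 (85 to 654). Quantile normalization moved 2 group levels by more than their SD, Itgae with 0.2 µg of MCC to 3.72 and an untested probe set of Itgb1 with 2 µg of MCC to 2.30.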
